A study of Mus musculus with 16 samples.

Results

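The 39 genes of the 4 mouse Hox clusters were measured as RNA-seq read counts in the terminal ileum of 16 male mice. They were taken as every gene of the count table whose symbol is Hoxa, Hoxb, Hoxc or Hoxd followed by a number, 39 of 21965 genes. The rule used no measured value. It gave 11 Hoxa genes, 10 Hoxb genes, 9 Hoxc genes and 9 Hoxd genes.

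The mice were C57BL/6 WT animals and littermates heterozygous for fat-1 (labelled Fat1+/-), a transgene from C. elegans that encodes an n3 fatty acid desaturase and is active in all tissues, so that it marks no single cell type. EtOH mice received a Lieber-DeCarli liquid diet in which EtOH was raised from 1% to a final 6% (v/v), the latter for 3 weeks. Pair-fed (PF) mice received the same diet with maltose dextrin in place of EtOH at equal calories. The PF groups held 4 WT and 4 fat-1 mice and the EtOH groups 3 WT and 5 fat-1 mice. Each mouse gave 1 library, named here by group and replicate number (WT PF 1). The transgene itself is no row of the count table and was not checked here. Library numbers 1 to 8 are PF mice and 9 to 16 are EtOH mice, so that order and diet cannot be told apart.

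Hox genes encode homeodomain transcription factors that give cells their place along the body axis during development. Within a cluster they lie in the order of their paralogue numbers, and those with high numbers (9 to 13, the posterior paralogues) are used further towards the tail. In the gut they pattern the mesenchyme and the epithelium from foregut to hindgut, and part of this pattern persists in the adult, with paralogue 13 genes marking the hindgut. HOX proteins bind DNA with PBX and MEIS cofactors. The CDX factors act upstream of several of them in the intestine, and Polycomb and trithorax complexes keep the clusters silent or active.

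On GRCm38 (mm10), the Hoxa genes lie on chromosome 6 with Hoxa2 from 52162417 and Hoxa13 up to 52260880, on the minus strand. The Hoxb genes lie on chromosome 11 between 96194316 (Hoxb13) and 96368256 (Hoxb1), the Hoxc genes on chromosome 15 between 102921103 (Hoxc13) and 103036852 (Hoxc4), and the Hoxd genes on chromosome 2 between 74668310 (Hoxd13) and 74765142 (Hoxd1), all on the plus strand.

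RefSeq promoter sequences (GRCm38.p6, 250 bases before to 50 after the start of transcription) were found for 22 of the 39 genes, some with more than 1 start. The 4 printed here belong to genes on which the results turn: Hoxb4 and Hoxb8 from the block of Hoxb genes that were higher in every EtOH library, and Hoxa9 and Hoxd10 from the posterior genes that were highest in 2 or 3 EtOH libraries. Each is given 5′ to 3′ along its gene. Capitals mark matches to TTTATG, a core of sites bound by CDX factors and by posterior HOX proteins, read on both strands (CATAAA on the other).
Hoxb4 (chr11:96318017-96318316, plus strand): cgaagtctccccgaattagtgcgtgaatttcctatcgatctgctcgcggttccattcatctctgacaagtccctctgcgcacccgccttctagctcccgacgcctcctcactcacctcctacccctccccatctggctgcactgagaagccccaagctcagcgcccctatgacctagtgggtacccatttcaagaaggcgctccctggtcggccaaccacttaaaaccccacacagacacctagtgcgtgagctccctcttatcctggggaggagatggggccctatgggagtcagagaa
Hoxb8 (chr11:96281655-96281954, plus strand): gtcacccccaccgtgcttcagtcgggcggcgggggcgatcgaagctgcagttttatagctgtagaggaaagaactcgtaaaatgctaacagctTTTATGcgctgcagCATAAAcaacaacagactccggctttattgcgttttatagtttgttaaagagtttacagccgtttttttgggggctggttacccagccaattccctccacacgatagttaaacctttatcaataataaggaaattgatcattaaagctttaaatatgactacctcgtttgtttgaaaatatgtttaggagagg
Hoxa9 (chr6:52227321-52227620, minus strand): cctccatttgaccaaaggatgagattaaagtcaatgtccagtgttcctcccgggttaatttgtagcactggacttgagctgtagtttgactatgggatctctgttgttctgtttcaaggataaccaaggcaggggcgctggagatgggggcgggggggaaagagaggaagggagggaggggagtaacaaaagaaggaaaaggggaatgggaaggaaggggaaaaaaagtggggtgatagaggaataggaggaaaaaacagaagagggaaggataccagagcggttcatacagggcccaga
Hoxd10 (chr2:74691641-74691940, plus strand): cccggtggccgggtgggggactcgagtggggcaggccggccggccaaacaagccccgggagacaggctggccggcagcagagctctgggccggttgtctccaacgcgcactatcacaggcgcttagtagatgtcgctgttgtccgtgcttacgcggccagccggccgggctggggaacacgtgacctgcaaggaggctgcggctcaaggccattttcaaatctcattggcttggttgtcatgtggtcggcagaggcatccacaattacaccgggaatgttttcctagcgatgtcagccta
Hoxb8 holds 2 matches, 1 on each strand, and the other 3 hold none. Over all 24 Hox promoters 5 hold the letters (20.8%), those of Hoxa7, Hoxb8, Hoxd3, Hoxd4 and 1 of the starts of Hoxd11, against 11.9% of the 32851 promoters searched. The palindrome TAATTA, a core of many homeodomain sites, is in 2 of 24, both of Hoxd11, against 5.29% of all promoters. TGATTTAT, a joint PBX and HOX type of site, is in none of 24 and in 0.977% of all. A match is a description of the letters and shows no binding. The Hox promoters have a median GC content of 57.7%, against 52.7% over all, and a median of 14.5 CpG dinucleotides, against 7.

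Between 8422645 and 11438539 reads were counted per library. Levels are given as CPM, the count scaled to a common library size after TMM, the scaling between libraries in edgeR, and on this scale 3 counts were worth 0.246 CPM (fat-1 EtOH 3) to 0.421 CPM (fat-1 PF 2). At this depth 2 of the 39 genes, Hoxc12 and Hoxc13, had no read in any library, and 18 had a read in every library. The Hox genes held 196 to 1009 reads in PF libraries and 2122 to 4646 in EtOH libraries, and 20 to 25 of them had a read in a PF library, against 23 to 34 in an EtOH library. In all, 22 passed the filter on low counts and were tested among 13811 genes, and 17 did not. Intervals and floors quoted here cover counting error only.

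5 libraries stood apart in genes that mark a gut region, and they recur in the Hox results. The labels give ileum for all mice. In fat-1 PF 2 and 4 the ileum bile acid genes Slc10a2 (7.58 and 3.56 CPM) and Fabp6 (26.1 and 3.31 CPM) were far below the other 14 libraries, where Slc10a2 was at 394 CPM or more and Fabp6 at 118 CPM or more. In WT EtOH 2 and fat-1 EtOH 3 and 4 the large intestine gene Car1 was at 4040, 11200 and 12200 CPM, against at most 79.1 CPM in the other 13. Results of the Hox genes that rest on these libraries, and the calls of the other gene lists, are given with and without them. In tissue of this kind, fewer cells of a type and less RNA per cell cannot be told apart.

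Levels are first described by cluster, per kb of exon so that genes can be set side by side. The Hoxb genes made up most of the Hox RNA in every group. Of the summed CPM per kb they held 76.8% ± 4.39 (SD, n = 4) in WT and 59.7% ± 12.5 (n = 4) in fat-1 mice under PF, and 87.8% ± 1.95 (n = 3) in WT and 85.8% ± 2.10 (n = 5) in fat-1 mice under EtOH. Summed over all Hox genes, WT mice had 36.4 ± 8.58 CPM per kb under PF and 92.5 ± 2.98 under EtOH, and fat-1 mice had 18.4 ± 7.74 and 112 ± 41.6. Every EtOH library (74.4 to 160 CPM per kb) lay above every PF library (11.2 to 43.7).

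The Hoxa sum was 2.19 to 4.10 CPM per kb in PF libraries. In EtOH libraries it was 2.50 to 3.12, apart from WT EtOH 2 (6.16) and fat-1 EtOH 3 and 4 (12.3 and 14.4). fat-1 PF 2 and 4, with the lowest Hoxb sums (5.21 and 6.97 CPM per kb), had the largest Hoxa shares, 35.9% and 30.3%, against 2.82% to 10.6% in the other 14 libraries. The Hoxc sum ran from 3.74 to 7.41 CPM per kb in 12 libraries and was lower in the 4 others, at 1.67 and 1.71 in fat-1 PF 2 and 4 and at 1.18 and 1.01 in fat-1 EtOH 3 and 4. The Hoxd sum was 0.307 to 2.26 CPM per kb in 14 libraries and 9.98 and 10.3 in fat-1 EtOH 3 and 4.

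**Figure D1:**
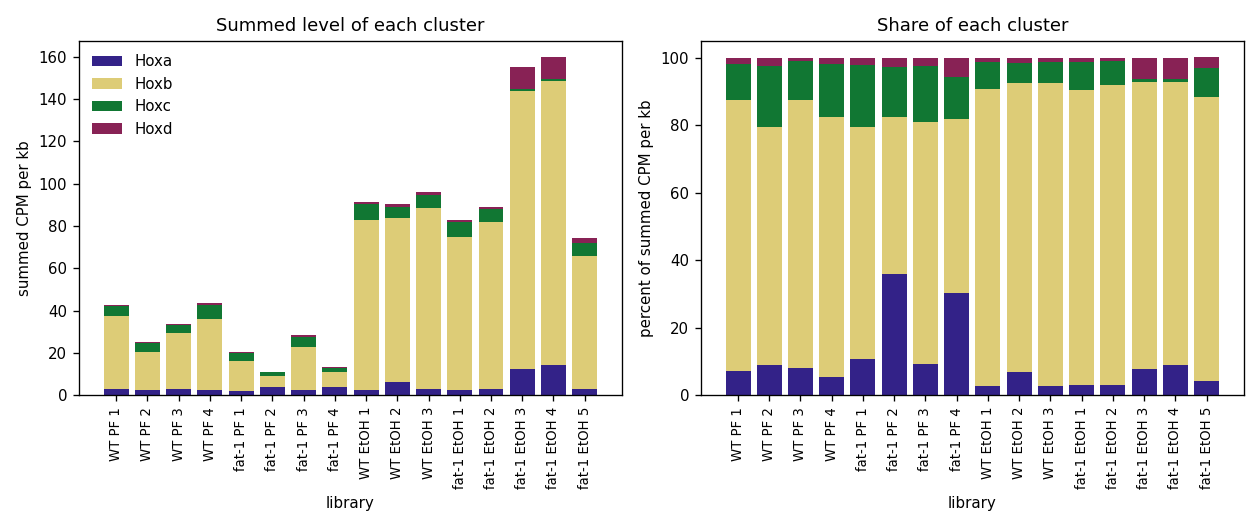
Summed level of each Hox cluster (left, CPM per kb of exon) and its share of the Hox total (right, percent) in the 16 libraries, as stacked bars from 0. The Hoxb part is the tallest in every library, and the totals of the EtOH libraries (74.4 to 160 CPM per kb) are all above those of the PF libraries (11.2 to 43.7).

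Within a group the order of the genes per kb was headed by Hoxb9, Hoxb6 and Hoxb7. In WT PF mice Hoxb9 (7.81 ± 2.52 CPM per kb), Hoxb6 (7.30 ± 2.33) and Hoxb7 (5.25 ± 1.04) led, and Hoxb9 and Hoxb6 differed by less than their SD. Hoxb5 (2.20 ± 0.624), Hoxc8 (1.99 ± 0.568), Hoxb8 (1.96 ± 0.616) and Hoxc6 (1.89 ± 0.624) followed at like levels. In WT EtOH mice the same 3 led, at 23.6 ± 2.79, 22.5 ± 3.34 and 12.7 ± 0.632, and in fat-1 EtOH mice at 28.1 ± 9.5, 25.1 ± 9.64 and 14.1 ± 3.92. In fat-1 PF mice the order was Hoxb7 (2.91 ± 2.12), Hoxb6 (2.55 ± 2.00) and Hoxb9 (1.94 ± 2.21), with SDs close to the means.

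**Figure D2:**
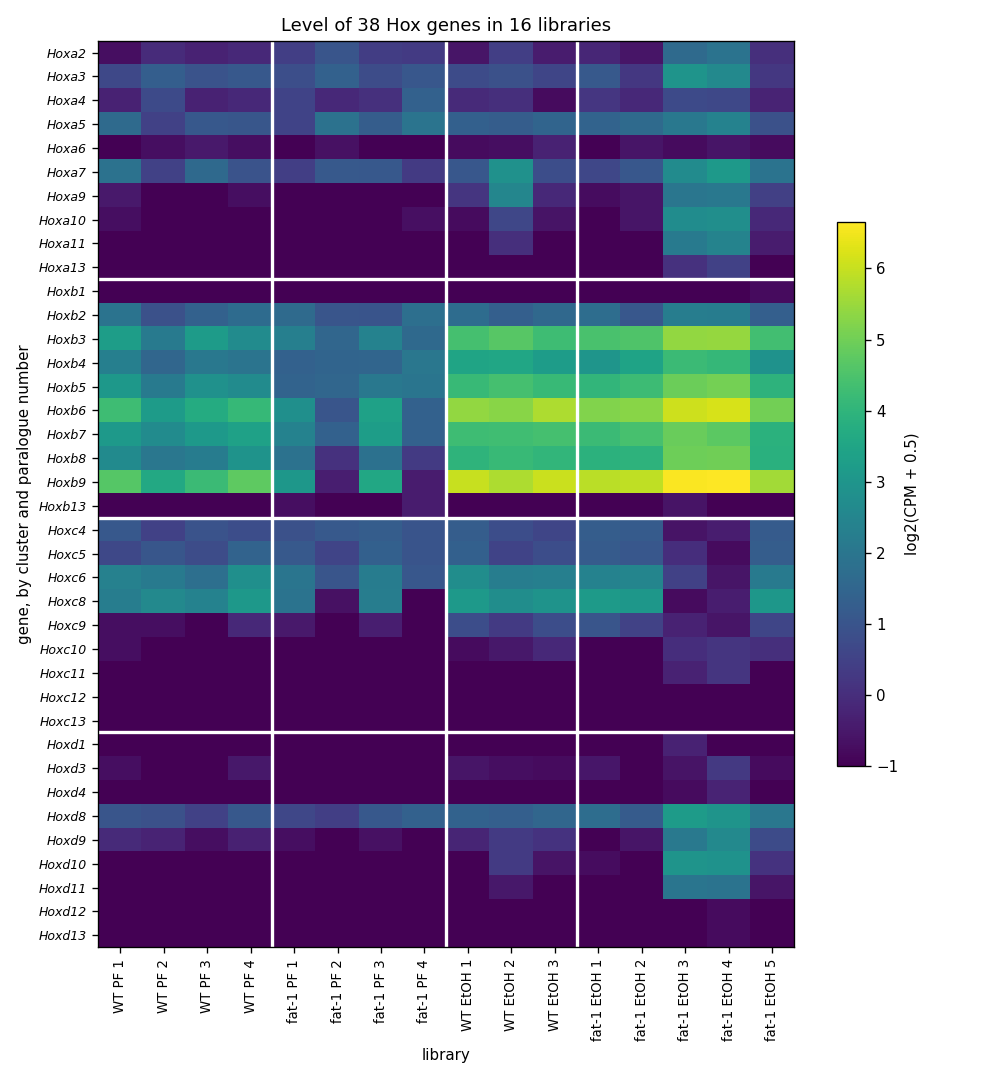
Level of 38 Hox genes (rows, by cluster and paralogue number) in the 16 libraries (columns), as log2(CPM + 0.5) from dark (no read) to bright. The bright band is Hoxb3 to Hoxb9, brighter in all 8 EtOH libraries than in the 8 PF libraries, and fat-1 EtOH 3 and 4 also show posterior Hoxa and Hoxd genes and lack the band of Hoxc4 to Hoxc8.

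The EtOH diet was compared with the PF diet in each genotype, the main question of the design. In both genotypes the 7 genes Hoxb3 to Hoxb9, an unbroken run of the Hoxb cluster, lay higher in every EtOH library than in any PF library. This held for no other of the 22 tested Hox genes and for 3.13% of all genes tested. Called genes are those whose p from the quasi-likelihood test of edgeR, after Benjamini-Hochberg adjustment over the 13811 genes, was at most 0.05. By that rule, 12 of the 22 Hox genes were called in fat-1 mice, all higher with EtOH (background 37.4% of genes called in either direction and 18.7% called higher), and 0 of 22 in WT mice (background 0.0796%).

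Hoxb9, the gene with the most reads, stood at 24.1, 11.9, 18.1 and 26.3 CPM in WT PF mice 1 to 4 and at 64.1, 52.4 and 65.5 CPM in WT EtOH mice 1 to 3. In fat-1 mice it stood at 7.84, 0.281, 11.6 and 0.245 CPM with PF and at 57.5, 59.6, 97.2, 100.3 and 47.6 CPM with EtOH. The lowest EtOH value was thus well above the highest PF value, and fat-1 PF 2 and 4, with 2 reads each, were far below all others. The log2 fold change was 3.85 (SE 0.685, adjusted p = 0.00108, edgeR) in fat-1 and 1.59 (SE 0.650, adjusted p = 0.298) in WT mice.

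Hoxb5, which had the smallest p of the Hox genes in both genotypes, stood at 7.98, 3.85, 6.78 and 5.92 CPM in WT PF mice and at 17.2, 20.8 and 17.4 CPM in WT EtOH mice. In fat-1 mice it was at 2.23, 2.39, 3.69 and 3.44 CPM with PF and at 15.9, 18.4, 30.0, 32.6 and 15.1 CPM with EtOH. All EtOH values were above all PF values, and fat-1 PF 2 and 4 lay within the range of fat-1 PF 1 and 3. The log2 fold change was 2.93 (SE 0.296, adjusted p = 0.000165, edgeR) in fat-1 mice, a 7.63-fold difference, and 1.59 (SE 0.296, adjusted p = 0.0656) in WT mice.

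Hoxb3 stood at 9.18, 3.85, 8.66 and 6.03 CPM in WT PF mice and at 20.5, 24.7 and 18.9 CPM in WT EtOH mice. With fat-1 it was at 4.45, 2.39, 4.78 and 2.58 CPM under PF and at 21.3, 23.0, 42.1, 43.0 and 19.8 CPM under EtOH. All EtOH values were above all PF values. The log2 fold change was 3.06 (SE 0.343, adjusted p = 0.000208, edgeR) in fat-1 and 1.62 (SE 0.344, adjusted p = 0.112) in WT mice. Of the exon length of Hoxb3, 52.9% lies opposite to the antisense gene Hoxb3os, and the strand setting of the counting is not given in the sources used here, so that reads of these genes cannot be told apart with certainty. The same holds for 27.3% of Hoxb2, 25.4% of Hoxa3 and 35% of Hoxa11, which lie opposite to other genes.

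The other 4 genes of the run moved alike. Group means of Hoxb4 went from 3.46 ± 0.871 (PF) to 10.2 ± 1.22 CPM (EtOH) in WT mice and from 2.56 ± 0.670 to 11.9 ± 5.17 CPM in fat-1 mice. Those of Hoxb6 were 14.3 ± 4.57, 44.1 ± 6.57, 5.01 ± 3.93 and 49.3 ± 18.9 CPM, in the same order. For Hoxb7 they were 8.10 ± 1.60, 19.6 ± 0.975, 4.5 ± 3.27 and 21.8 ± 6.05 CPM, and for Hoxb8 5.17 ± 1.62, 16.3 ± 1.17, 1.91 ± 1.45 and 21.1 ± 9.0 CPM. In fat-1 mice the folds of the 7 genes ran from 4.64 (Hoxb4) to 14.4 (Hoxb9), with adjusted p of 0.00108 or less (edgeR). In WT mice they ran from 2.42 (Hoxb7) to 3.13 (Hoxb8), with adjusted p from 0.0656 to 0.298.

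**Figure D3:**
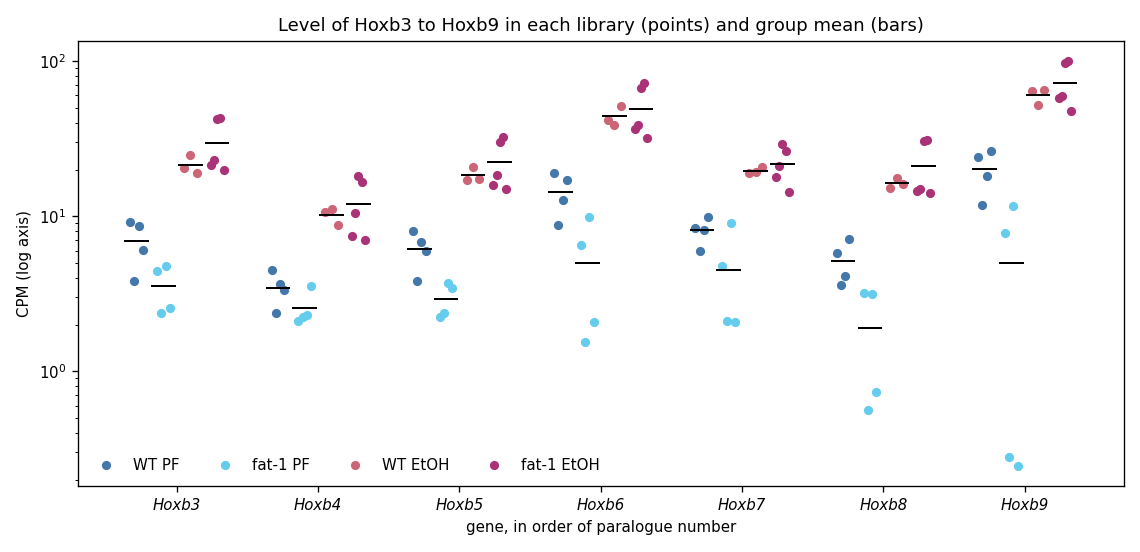
CPM (log axis) of Hoxb3 to Hoxb9 in each library (points) and the mean of each group (black bars), by genotype and diet. For each of the 7 genes every EtOH point is above every PF point, and the lowest points of Hoxb6 to Hoxb9 are those of fat-1 PF 2 and 4, with Hoxb9 at 0.281 and 0.245 CPM.

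The genes on either side of the run did not show this. Hoxb2, next to it on the paralogue 1 side, had a log2 fold change of 0.44 in fat-1 and 0.04 in WT mice. Hoxb1 had 1 read in all libraries together. Hoxb13, far from the run on the other side, had 5 reads in all, 1 in fat-1 PF 1, 2 in fat-1 PF 4 and 2 in fat-1 EtOH 3.

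In WT mice the count of called genes depended on the test. edgeR called 0 of 22 Hox genes, and 9 had an unadjusted p under 0.05, against 14.1% of all genes. With only the WT libraries in the fit it called 7 of 16, Hoxb3 to Hoxb9 (background 4.03% called higher). DESeq2 called 6, Hoxb3 to Hoxb8 (background 0.686% called higher). It gave no adjusted p to 30 Hox genes in WT mice, so that its count does not have the 22 of edgeR as base. limma voom with sample quality weights called 9, with Hoxa9 and Hoxc9 added to Hoxb3 to Hoxb9 (background 10% called higher). All Hox genes called in WT mice by these fits were higher with EtOH. Over the 22 genes the median log2 fold change was 0.76 in WT and 1.99 in fat-1 mice, against 0.0116 and 0.0538 over all genes tested. Of the 22, Hoxa9, Hoxa10, Hoxc9 and Hoxd9 reached the count level of the filter in 0 of 8 PF libraries and so passed it through EtOH libraries, so that these medians and the count of 12 give no support of their own. Upper-quartile scaling moved the median over all genes in fat-1 mice to 0.20 and the split of all called genes from 2578 higher and 2592 lower to 3906 higher and 1753 lower, and 13 of 22 Hox genes were then called, all higher (background 28.3% called higher). DESeq2 called 14 in fat-1 mice, all higher, with Hoxa7 and Hoxd10 added to the 12 (background 18.2% called higher). It gave no adjusted p to 10 Hox genes there. limma voom called 8, Hoxb3 to Hoxb9 and Hoxc9 (background 10.8% called higher), with a median of 1.26 over the 22 genes, and the fit of the fat-1 libraries alone called 8 of 16, Hoxb3 to Hoxb9 and Hoxd8 (background 11.3% called higher).

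The comparison was repeated without the libraries that stood apart. Without WT EtOH 2 and fat-1 EtOH 3 and 4, edgeR called 9 of 18 tested Hox genes in fat-1 mice (background 13.9% called higher) and 2 of 18 in WT mice, Hoxb4 and Hoxb5 (background 0.123% called higher). Without fat-1 PF 2 and 4 it called 7 of 25 in fat-1 mice, Hoxb3 to Hoxb9 (background 5.99% called higher). Without all 5 it called 8 of 17 in each genotype (background 1.65% called higher in WT mice, and 4.27% called higher and 11.9% called in all in fat-1 mice). These 8 were Hoxb3 to Hoxb9 with Hoxc9 in WT mice and with Hoxc8 in fat-1 mice. Hoxb9 then had a log2 fold change of 2.52 with fat-1 and 1.69 without it, and Hoxb5 of 2.51 and 1.5. Hoxb3 to Hoxb9 were called in fat-1 mice under all settings in which they were tested, 26 or 27 for each gene.

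Genes of the surrounding cell types moved with the diet as well. The 8 smooth muscle markers summed to 1490 to 1960 CPM (WT) and 1330 to 1780 CPM (fat-1) in PF libraries, and to 2590 to 3280 CPM (WT) and 2350 to 4610 CPM (fat-1) in EtOH libraries, so that the diets did not overlap. In fat-1 mice 8 of 8 rose (18.7% of all genes were called higher and 18.8% lower), Cnn1 the most (log2 fold change 1.81, SE 0.272, adjusted p = 0.000431, edgeR), and 0 of 8 were called in WT mice. Fibroblast markers rose in 6 of 7 and enteric neuron and glia markers in 5 of 8, the largest being Dpt (log2 fold change 1.09) and Elavl4 (1.39). The neuron and glia markers summed to 20.7 to 27.2 CPM in fat-1 PF libraries, to 52.2 and 66.6 CPM in fat-1 EtOH 3 and 4 and to 30.5 to 33.3 CPM in the other fat-1 EtOH libraries. Without the 5 libraries, 6 of 8 smooth muscle, 4 of 7 fibroblast and 0 of 8 neuron and glia markers were called in fat-1 mice, all higher (background 4.27% called higher). In WT mice 5 of 8 smooth muscle markers were then called (468 of 13716 genes called). No marker of these 3 lists was at 0 in a library. With all libraries the fitted folds of Hoxb3 to Hoxb9 in fat-1 mice ran from 4.64 to 14.4. Under other settings the lowest log2 fold change among them was 1.40 (Hoxb7). Of the 8 epithelium markers 2 rose, Krt19 (0.59) and Krt18, and 2 fell, Vil1 (log2 fold change -0.88) and Krt20, both counts near the shares over all genes, and 0 of 8 were called without the 5 libraries. The epithelium sum was 10700 and 10600 CPM in fat-1 EtOH 3 and 4, the lowest of all libraries. B cell and T cell markers had 0 of 7 called each in both genotypes, and fat-1 EtOH 5 had the highest B cell sum (570 CPM, against 2.14 to 114 in the others). The part of these lists in the Hox result was not tested.

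Genes of proximal small intestine moved the other way. The 10 markers summed to 8260 to 28400 CPM in WT PF and 19200 to 68600 in fat-1 PF libraries, against 4040 to 5210 in WT EtOH and 595 to 7000 in fat-1 EtOH libraries. With EtOH, 3 of 10 fell in WT mice (0.0724% of all genes called lower) and 8 of 10 in fat-1 mice (18.8% called lower), and Lct, the lactase gene, fell the most in both (log2 fold change -10.70, SE 1.22, adjusted p = 0.00273, in WT and -10.83, SE 0.934, adjusted p = 7.6e-05, in fat-1 mice, edgeR). The 6 ileum markers summed to 2500 to 7030 CPM (WT) and 439 to 6610 CPM (fat-1) in PF libraries, and to 6700 to 7090 CPM (WT) and 1080 to 8300 CPM (fat-1) in EtOH libraries, with 0 called in WT mice and 1 in fat-1 mice, Nr1h4 (log2 fold change 1.16). Without the 5 libraries, 9 of 10 proximal markers fell in fat-1 mice (1041 of 13716 genes called lower) and 4 of 10 in WT mice (242 of 13716). In fat-1 mice 0 of 6 ileum markers were then called. Lct, Gata4, Fabp1, Cyp2b10 and Apoa4 of the proximal list are among the largest falls with EtOH that the study reported from these mice. The list was chosen with earlier results of these data known, so that its counts give no support of their own. The part of these region markers in the Hox result was not tested.

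Among the tested genes, Hoxa9, Hoxa10 and Hoxd9 had the largest fitted changes in fat-1 mice, and these rested on few libraries. Hoxa9 had no read in any fat-1 PF library and stood at 0.095, 0.170, 3.53, 3.66 and 0.855 CPM in fat-1 EtOH mice 1 to 5. In WT mice it was at 0.219, 0, 0 and 0.104 CPM with PF and at 0.627, 5.25 and 0.420 CPM with EtOH. It was thus high in WT EtOH 2 and fat-1 EtOH 3 and 4, and lower in the other EtOH libraries. Against a floor of 3 counts per library, its mean was at least 4.38-fold higher with EtOH in fat-1 mice, but without fat-1 EtOH 3 and 4 the mean (0.373 CPM) was under the mean floor of the PF libraries (0.379 CPM), and no bound was left. In WT mice the ratio was 23.2 (95% counting interval 7.58 to 116), and 6.35 (1.71 to 35.1) without WT EtOH 2. The fitted log2 fold change of 7.06 (SE 2.20, adjusted p = 0.0265, edgeR) in fat-1 mice depends on the prior count and is no measure of size. Under the 21 of 27 alternatives in which it was tested, its adjusted p ran from 0.000447 to 0.187.

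Hoxa10 stood at 0, 0.170, 6.15, 6.42 and 0.428 CPM in fat-1 EtOH mice, against a single read in fat-1 PF mice (0.123 CPM in fat-1 PF 4). The ratio was 86.0 (95% counting interval 15.2 to 3420), and the fitted log2 fold change was 5.92 (SE 1.75, adjusted p = 0.0169, edgeR). Without fat-1 EtOH 3 and 4 the ratio was 6.6 (0.848 to 297), an interval that holds 1. Hoxd9 stood at 0, 0.170, 3.77, 5.62 and 1.2 CPM in fat-1 EtOH mice and at 0.106, 0, 0.137 and 0 CPM in fat-1 PF mice. Its ratio was 34.9 (9.46 to 291) and its fitted log2 fold change 4.86 (SE 1.33, adjusted p = 0.0114), and without fat-1 EtOH 3 and 4 the ratio was 7.54 (1.77 to 67.6). Of the 16 reads of Hoxd9 then left with EtOH, 14 were in fat-1 EtOH 5. For both genes fat-1 EtOH 3 and 4 held most of the reads, and fat-1 EtOH 1 had none. In WT EtOH mice Hoxa10 was at 0.0895, 1.05 and 0.168 CPM and Hoxd9 at 0.358, 0.735 and 0.588 CPM, and neither was called. Without WT EtOH 2 and fat-1 EtOH 3 and 4, and also without fat-1 EtOH 3 or 4 alone, Hoxa9, Hoxa10 and Hoxd9 fell under the filter on low counts and were not tested. With all libraries limma voom called none of these 3 in fat-1 mice.

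Hoxc9 and Hoxd8 complete the 12 genes called in fat-1 mice. Hoxc9 stood at 1.52, 0.935, 0.328, 0.178 and 1.03 CPM in fat-1 EtOH mice and at 0.212, 0, 0.273 and 0 CPM in fat-1 PF mice (log2 fold change 2.56, SE 0.850, adjusted p = 0.0291, edgeR). The groups overlapped, with fat-1 EtOH 3 and 4 the lowest of theirs. In WT mice it was at 0.109, 0.113, 0 and 0.416 CPM with PF and at 1.25, 0.735 and 1.26 CPM with EtOH, which did not overlap (log2 fold change 2.65, adjusted p = 0.195). Hoxd8 stood at 2.85, 1.79, 8.61, 7.23 and 3.59 CPM in fat-1 EtOH mice and at 1.06, 0.842, 1.64 and 2.09 CPM in fat-1 PF mice (log2 fold change 1.77, SE 0.435, adjusted p = 0.0064). Both calls depended on the libraries that stood apart. Without fat-1 PF 2 and 4 the log2 fold change was 1.68 for Hoxc9 (adjusted p = 0.216, edgeR) and 1.84 for Hoxd8 (adjusted p = 0.0504), and without all 5 it was 2.23 (adjusted p = 0.0637) and 1.05 (adjusted p = 0.102). Within a genotype, 10 of 22 genes did not overlap between the diets and were higher with EtOH in WT mice (background 12.2%), and 8 of 22 in fat-1 mice (background 10.6%). They were Hoxa9 and Hoxb3 to Hoxb9 in both, with Hoxc9 and Hoxd8 added in WT mice. For Hoxa9 in fat-1 mice this rests on 1 and 2 reads in fat-1 EtOH 1 and 2 against 0 with PF, which the floor of 3 counts does not tell apart. Hoxa9 and Hoxc9 also passed the filter through EtOH libraries, so that they do not count as support here.

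**Figure D4:**
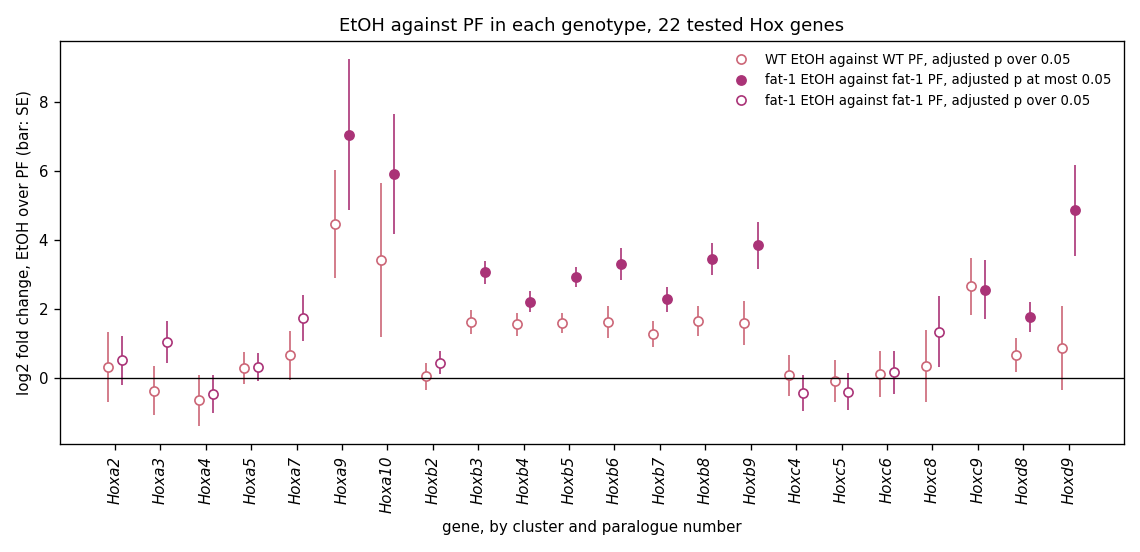
Log2 fold change (EtOH over PF, with SE as bars) of the 22 tested Hox genes by cluster and paralogue number, in WT mice and in fat-1 mice. Filled points have an adjusted p of at most 0.05 (edgeR), which 12 genes reached in fat-1 mice and none in WT mice, and Hoxb3 to Hoxb9 lie at 1.28 to 1.65 in WT and at 2.21 to 3.85 in fat-1 mice.

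The remaining 10 tested genes were not called in fat-1 mice. They were Hoxa2, Hoxa3, Hoxa4, Hoxa5, Hoxa7, Hoxb2, Hoxc4, Hoxc5, Hoxc6 and Hoxc8. Hoxa7 was the nearest to the threshold (log2 fold change 1.74, SE 0.681, adjusted p = 0.0575, edgeR), and 20.4% of its exon length lies opposite to the antisense gene Hoxaas3.

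17 genes had too few reads for the test, and edgeR with a looser filter called 1 of them in fat-1 mice, Hoxc10 (28 reads in all, adjusted p = 0.0471, background 14.3% called higher). DESeq2, run without that filter, called Hoxd10 instead (adjusted p = 0.0242). Summed over all libraries, Hoxd3 had 20 reads, Hoxa6 17, Hoxd4 5, Hoxd1 4 and Hoxd12 1. Hoxd3 and Hoxd4 share 62.3% and 52.3% of their exon length on the same strand with each other and with Gm28230, so that their counts are uncertain. Hoxd10 had no read in a PF library. It had 0, 7 and 2 reads in WT EtOH mice and 1, 0, 89, 79 and 7 reads in fat-1 EtOH mice. Hoxa11 had no read in PF libraries, 0, 5 and 0 in WT EtOH mice and 0, 0, 47, 55 and 3 in fat-1 EtOH mice. Hoxd11 had none in PF libraries, 0, 2 and 0 in WT EtOH mice and 0, 0, 42, 37 and 2 in fat-1 EtOH mice. These 3 genes were thus found almost wholly in fat-1 EtOH 3 and 4, the libraries with the highest Car1. Against the floor of 3 counts per library, the fat-1 EtOH mean was at least 7.93-fold higher for Hoxd10, 4.75-fold for Hoxa11 and 3.65-fold for Hoxd11. Without fat-1 EtOH 3 and 4 the means were 0.231, 0.0855 and 0.057 CPM, all under the mean floor of 0.379 CPM, so that these bounds describe 2 libraries. By exact permutation of the mice, two-sided and on the scale log2(CPM + 0.5), p in fat-1 mice was 0.0794 for Hoxd10 and 0.238 for Hoxa11 and Hoxd11, with 0.0159 the smallest that 5 against 4 mice allow. None of the 15 genes with a read had a p under 0.05 in any of the 4 comparisons between groups, and for 3 WT EtOH against 4 WT PF mice the smallest possible is 0.0571.

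Paralogue 13 genes, which mark the hindgut, were close to or at 0. Hoxa13 had 7 and 10 reads in fat-1 EtOH 3 and 4 (0.574 and 0.892 CPM) and none in the other 14 libraries. Hoxd13 had 1 read, in fat-1 EtOH 4, and Hoxc13 none. Hoxc11 had 4 and 7 reads in fat-1 EtOH 3 and 4 and none elsewhere. Over the 10 genes of paralogues 10 to 13 other than the 2 without reads, fat-1 EtOH 3 and 4 held 272 and 269 reads, WT EtOH 2 held 26 and fat-1 EtOH 5 held 23. The other 12 libraries held 0 to 9.

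Hoxc4, Hoxc5, Hoxc6, Hoxc8 and Hoxc9 were lowest of the EtOH libraries in fat-1 EtOH 3 and 4, while Hoxc10 had 6 and 7 reads there, and 6 in fat-1 EtOH 5. Hoxc8 stood at 8.55, 7.82, 0.082, 0.268 and 7.87 CPM in fat-1 EtOH mice, that is at 1 and 3 reads in fat-1 EtOH 3 and 4 and at 90 to 92 reads in the others. In WT EtOH mice it was at 8.15, 6.19 and 7.14 CPM. In PF mice it stood at 4.26, 5.55, 4.78 and 7.90 CPM in WT and at 3.29, 0.140, 4.24 and 0 CPM in fat-1 mice. Hoxc8 was thus at or near 0 in fat-1 PF 2 and 4 and in fat-1 EtOH 3 and 4, and at 3.29 CPM or more elsewhere. The sum of Hoxc4, Hoxc5, Hoxc6 and Hoxc8 was 1.64 and 0.803 CPM in fat-1 EtOH 3 and 4, 4.35 and 4.54 CPM in fat-1 PF 2 and 4, and 9.75 to 18.3 CPM in the other 12 libraries. Of the 5 tested Hoxc genes, those other than Hoxc9 were not called in a diet comparison with all libraries, and Hoxc8 was called in fat-1 mice (log2 fold change 1.12, adjusted p = 0.0279, edgeR) without the 5 libraries. With all libraries its log2 fold change was 1.34 (SE 1.02, adjusted p = 0.311).

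The highest paralogue number with over 3 reads gives the same picture by library. In the Hoxa cluster it was 7 in all 8 PF libraries, 9, 11 and 9 in WT EtOH mice and 7, 7, 13, 13 and 10 in fat-1 EtOH mice. In the Hoxb cluster it was 9, except 8 in fat-1 PF 2 and 4. Posterior Hoxa genes were thus read in WT EtOH mice 1 and 3 as well, at the low levels given above for Hoxa9.

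The large intestine list gives the values to set beside these. Its 10 genes summed to 401 to 502 CPM (WT) and 284 to 464 CPM (fat-1) in PF libraries, and to 461 to 5220 CPM (WT) and 447 to 13200 CPM (fat-1) in EtOH libraries. In fat-1 mice 5 of the 7 tested rose (18.7% of all genes called higher), Car1 the most (log2 fold change 10.38, SE 3.53, adjusted p = 0.0325, edgeR), and 0 of 7 were called in WT mice. Without the 5 libraries 1 of 6 rose in fat-1 mice, and Car1 was not called (adjusted p = 0.129). The EtOH libraries among these 5 were set apart by Car1 itself. That Car1 lost its call without them thus follows from this choice and is no separate result. Fxyd4 was at 0 in all libraries, and Aqp8 and Scnn1b were at 0 in 5 and 7 of 8 PF libraries. The part of these markers in the posterior Hox values was not tested.

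**Figure D5:**
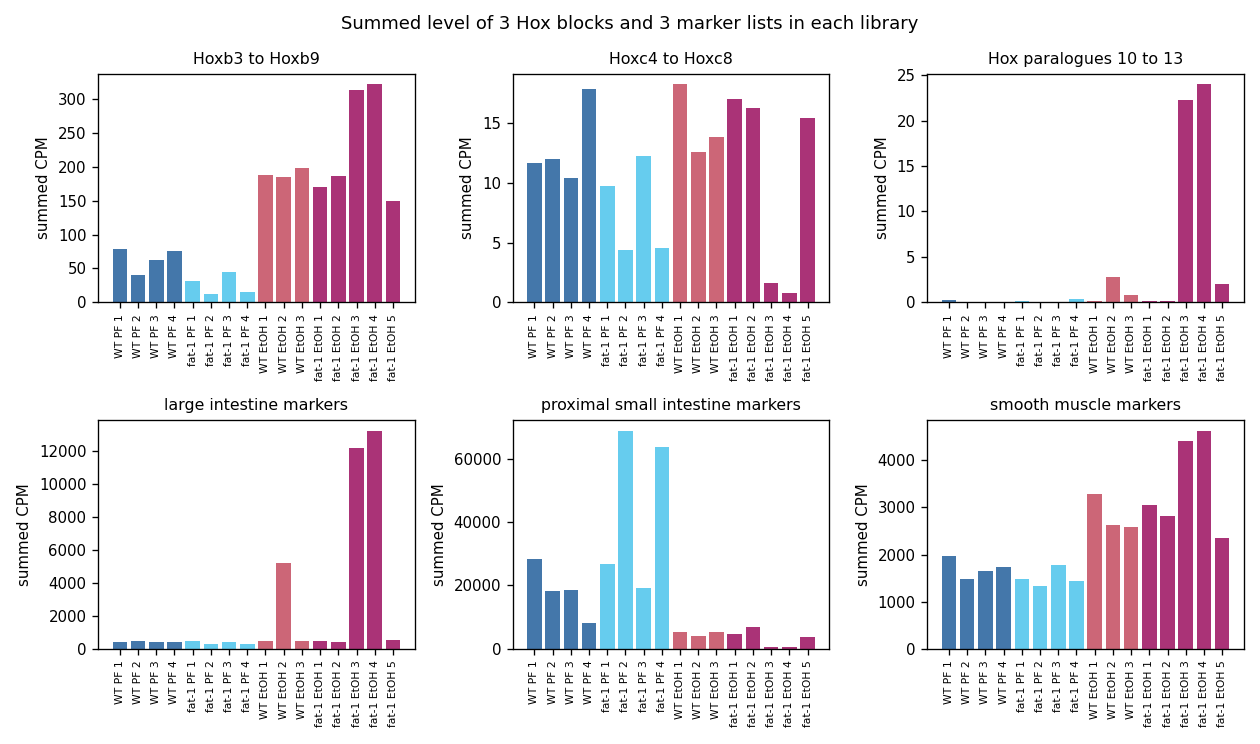
Summed CPM in each library (bars from 0, coloured by group) of Hoxb3 to Hoxb9, of Hoxc4 to Hoxc8, of Hox paralogues 10 to 13 and of the large intestine, proximal small intestine and smooth muscle markers. The bars of paralogues 10 to 13 and of large intestine are tallest in fat-1 EtOH 3 and 4, where those of Hoxc4 to Hoxc8 are lowest (1.64 and 0.803 CPM), while the Hoxb bars of all EtOH libraries (149 to 322 CPM) are above all PF libraries (11.5 to 78.9).

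The genotypes were compared under each diet. On the PF diet edgeR called 0 of 22 Hox genes (background 0% of genes), and 6 had an unadjusted p under 0.05 (12.7% of all genes). limma voom called 0 of the 22. DESeq2 called 1, Hoxb6, which was lower in fat-1 mice (background 0.232% called lower). It gave no adjusted p to 37 other Hox genes. Those are left undecided by DESeq2, and its count does not have the 22 of edgeR as base. All 8 tested Hoxb genes had negative log2 fold changes, from -2.0 (Hoxb9) to -0.12. Hoxb5 differed by a log2 fold change of -1.06 (SE 0.303, adjusted p = 0.187, edgeR) and Hoxb6 by -1.51 (SE 0.468, adjusted p = 0.199). Hoxb6 was at 18.9, 8.71, 12.7 and 17.0 CPM in WT PF and at 6.57, 1.54, 9.84 and 2.09 CPM in fat-1 PF mice. Hoxb5, Hoxb8, Hoxb9 and Hoxc8 were lower in all fat-1 PF than in all WT PF mice, 4 of 22 genes (background 2.62%). The margin was narrow for Hoxb9, at 11.6 (fat-1 PF 3) against 11.9 CPM (WT PF 2). It was narrow also for Hoxc8, at 4.24 (fat-1 PF 3) against 4.26 CPM (WT PF 1). Hoxa2 was higher in all fat-1 PF mice (0.736 to 1.54 CPM) than in all WT PF mice, 1 of 22 (background 4.24%), and was not called (log2 fold change 1.54, adjusted p = 0.497, edgeR). Without fat-1 PF 2 and 4 the log2 fold change of Hoxb9 was -1.06, that of Hoxb6 -0.82 and that of Hoxb5 -1.07, so that the sizes for Hoxb9 and Hoxb6 moved with these 2 libraries and that for Hoxb5 did not.

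With EtOH the genotypes overlapped for all 22 Hox genes. On the EtOH diet edgeR called 0 of 22 (background 0.00724%), as did DESeq2 and limma voom, and 1 had an unadjusted p under 0.05, against 4.86% of all genes. That gene was Hoxd8 (log2 fold change 1.15, SE 0.451, adjusted p = 0.757, edgeR), with 2.15, 1.99 and 2.35 CPM in WT EtOH mice. Hoxa3 followed (1.43, SE 0.673, adjusted p = 0.757), at 1.16, 1.36 and 1.01 CPM in WT EtOH and 1.71, 0.680, 7.22, 5.62 and 0.684 CPM in fat-1 EtOH mice. For both, fat-1 EtOH 3 and 4 were the highest. Without WT EtOH 2 and these 2 libraries the values were 0.28 for Hoxd8 and -0.10 for Hoxa3, and that of Hoxb5 went from 0.28 to -0.07. The fat-1 EtOH mice were higher for 16 of 22 genes with all libraries and for 7 of 18 without these 3. Hoxb3 to Hoxb9 differed by 1.11-fold to 1.40-fold.

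The interaction of genotype and diet asks whether the EtOH response differed between the genotypes. edgeR called 0 of 22 Hox genes (background 0% of genes), as did DESeq2 and limma voom, and 5 had an unadjusted p under 0.05, against 8.26% of all genes. All 8 tested Hoxb genes had a positive interaction, that is a larger rise in fat-1 mice, with a median of 1.39 on the log2 scale against 0.0101 over all genes. Hoxb5 (1.34, SE 0.413, adjusted p = 0.595, edgeR) and Hoxb3 (1.44, SE 0.478, adjusted p = 0.595) had the smallest p. Without the 5 libraries that stood apart these were 1.00 and 0.71. The difference between the genotypes in the Hoxb response did not pass the test.

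Genes that act with or on HOX proteins were counted for the same comparisons, and their counts in fat-1 mice stand beside 37.4% of all genes called there, 18.7% higher and 18.8% lower. Of 9 HOX cofactors of the PBX, MEIS and PKNOX families, all tested, 5 rose and 1 fell with EtOH in fat-1 mice. Pknox2 rose the most (log2 fold change 1.09, SE 0.311, adjusted p = 0.0138, edgeR), and Pbx4 fell (-1.22, SE 0.273, adjusted p = 0.00386). None was called in WT mice, where the median was 0.34 against 0.88 in fat-1 mice. Without the 5 libraries that stood apart 2 of 9 were called in fat-1 mice (11.9% of all genes called). Pknox2 (0.78, adjusted p = 0.2) and Pbx4 (-0.76, adjusted p = 0.115) were not.

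Of 22 Polycomb and trithorax genes, 3 rose and 5 fell with EtOH in fat-1 mice, a share near that of all genes, and 0 were called in WT mice. Kmt2a, a trithorax histone methyltransferase that keeps Hox genes active, rose (log2 fold change 0.86, SE 0.182, adjusted p = 0.00281, edgeR), and Cbx8, a Polycomb subunit, fell (-1.07, SE 0.249, adjusted p = 0.00458). Of the core Polycomb genes, Eed (-0.25) and Suz12 (-0.33) fell, Rnf2 rose (0.42), and Ezh1 (0.17) and Ezh2 (0.16) were not called. The median log2 fold change of the 22 was -0.04, with 11 above 0. When the 5 libraries were left out, 1 of the 22 was called in fat-1 mice, Kmt2a (1.01, adjusted p = 0.0292), a smaller share than the 11.9% over all genes. Of 9 tested genes of the retinoic acid pathway, which induces Hox genes in the embryo, 2 were called, a smaller share than over all genes. Rarg rose (1.36, SE 0.272, adjusted p = 0.002) and Aldh1a3 fell (-1.65, SE 0.359, adjusted p = 0.00339) in fat-1 mice. Neither was called without the 5 libraries, with 0.76 for Rarg (adjusted p = 0.0603) and -0.44 for Aldh1a3 (adjusted p = 0.248), which stood at 40.8 and 40.7 CPM in fat-1 PF 2 and 4 and at 14.7 and 17.4 CPM in fat-1 PF 1 and 3.

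Cdx1 and Cdx2, the intestinal ParaHox genes, were not called in any comparison. Cdx2 was at 185 to 283 CPM in PF and 185 to 310 CPM in EtOH libraries, with log2 fold changes of 0.05 (SE 0.158) in fat-1 and -0.23 (SE 0.181) in WT mice. The other 6 ParaHox and Evx genes were under the filter on low counts. Pdx1, a ParaHox gene of the duodenum and pancreas, was highest in fat-1 PF 2 and 4 (0.702 and 1.60 CPM), and Evx1 and Evx2, which adjoin the Hoxa and Hoxd clusters, were at 0 in all libraries. Of 8 tested genes that flank the clusters, 2 rose and 2 fell in fat-1 mice (37.4% of all genes called). Ttll6, in the neighbourhood of Hoxb13, rose the most (log2 fold change 5.30, SE 1.28, adjusted p = 0.006, edgeR), with 10.9 and 13.8 CPM in fat-1 EtOH 3 and 4 and at most 1.09 CPM elsewhere, and Skap2, beside the Hoxa cluster, fell the most (-0.55, SE 0.19, adjusted p = 0.0351). With the 5 libraries left out, Ttll6 was under the filter and Skap2 was not called (-0.24, adjusted p = 0.482). The changes in the flanking genes were thus smaller than those in Hoxb3 to Hoxb9, apart from Ttll6.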

How the data were processed

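Terminal ileum RNA from 16 mice was sequenced from poly(A) libraries with a stranded kit. The authors aligned paired reads to mm10 with tophat2 and counted reads per Ensembl gene with htseq, and the deposited values are raw counts, with no normalization. The strand setting of the counting is not given in the sources used here. FastQC 0.10.1 and bcl2fastq are named in the submitters' processing notes. 

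Hox genes were taken by symbol. Some genes are counted in the totals but are not reported here by value. The members and gene lists were chosen with earlier results of these data known. Groups came from the labels, 1 mouse per library. Counts were filtered, TMM-scaled and tested in edgeR 4.0.16 (R 4.3.3) by the quasi-likelihood test with robust dispersion, all 16 libraries in 1 fit of 4 group means, with Benjamini-Hochberg adjustment over 13811 genes and a threshold of 0.05. DESeq2 1.42.0, limma 3.58.1 (voom with sample quality weights), other scalings, filters, the compared groups alone, a replicate block and leaving out each library were alternatives. Leaving out fat-1 PF 2 and 4, or these with WT EtOH 2 and fat-1 EtOH 3 and 4, was chosen after seeing the data. Genes under the filter were compared by exact permutation in Python 3.11.15 with SciPy 1.17.1. Intervals are 95% exact counting intervals. 26 of 21965 genes had no entry in the annotation used for positions. The fit was tested on simulated data.

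Full statistics were planned for the 3 called Hox genes with the largest positive and negative log2 fold change per comparison, or, with none called, the 2 with the smallest p, and library values for these and paralogue 13 genes. Hoxb3 to Hoxb9 as a run, Hoxb9, Hoxc8, Hoxc9, Hoxd10, Hoxa11, Hoxd11 and the genes of the markers for libraries that stood apart were chosen after their values were seen. Each library had 8422645 to 11438539 counted reads.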

Additional observations from a re-analysis of the deposited data

Results flagged for a closer look

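In groups of 4 or 5 mice, 5 of 65 tests of a Hox gene found 1 library far from the rest of its group, where chance flags about 1 in 20. Hoxa2 was at 1.54 CPM in fat-1 PF 2, against 0.736 to 0.848 CPM in the other fat-1 PF mice. Hoxa4 was at 1.13 CPM in WT PF 2, against 0.328 to 0.416 CPM. Hoxb4 was at 3.56 CPM in fat-1 PF 4, against 2.12 to 2.32 CPM. Hoxa10 was at 0.109 CPM in WT PF 1 and at 0.123 CPM in fat-1 PF 4, which are 1 read each, with none in the other mice of those groups.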

How the results depend on the processing

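In WT mice the count of Hox genes called with EtOH, 0 with all libraries, was 6 with DESeq2, 9 with limma voom, 7 with only the groups compared, 2 without WT EtOH 2 and fat-1 EtOH 3 and 4, and 8 without these and fat-1 PF 2 and 4. Leaving out 1 library gave 0 to 1, the call being Hoxb5 without fat-1 EtOH 4 (4 of 13694 genes called higher). In fat-1 mice the count of 12 became 5 with a stricter filter, under which 6 were tested (2351 of 11675 genes called higher). It became 7 without fat-1 PF 2 and 4 (background 5.99% called higher). With 1 library left out it was 9 to 13 (1953 to 2773 of all genes called higher). DESeq2 called 1 Hox gene between the genotypes on the PF diet, where it gave no adjusted p to 37 others. For EtOH against PF in WT mice it gave none to 30. In the other comparisons leaving out 1 library gave 0. Between the genotypes on EtOH, the difference of Hoxa3 turned to -0.10 without the 3 EtOH libraries and without all 5, and that of Hoxb5 to -0.07 and -0.08. The cause of these shifts was not tested. For 31 pairs of a Hox gene and a comparison given with full statistics or named above, 730 values under an alternative kept their side of the threshold and direction, 41 gained the call, 18 lost it and 4 turned direction. At this depth a gene under 3 counts in a library, 0.246 to 0.421 CPM after TMM scaling, could not be told from 0.

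Replicate numbers gave no pairing of the mice, since the mean correlation of deviations was -0.0219 over 21 pairs with the same number and 0.00699 over 74 with other numbers, and 1 library was most like one of its own number. With a replicate block the counts were 1 in WT mice (Hoxb5) and 10 in fat-1 mice. Of all 13811 genes, 9 and 2318 were then called higher.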
